A study of Saccharomyces cerevisiae with 16 samples.

Results

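The 10 genes described here encode the osmosensing branches that lie upstream of the mitogen-activated protein kinase Hog1 in Saccharomyces cerevisiae. The rule that chose them lists gene names of the known pathway and uses no measured value, though it was written with earlier results of these data known. They are 10 of the 6227 genes on the array, of which 6165 were tested. Total RNA was measured on 16 single-colour Agilent arrays, from 4 lines of cells at 0, 45, 90 and 150 min after methionine was removed from the medium. Lines H, 170 and WT are hog1Δ cells with HOG1 placed under the MET3 promoter, repressed by methionine and induced once methionine is gone. Line vec is JBY13 cells with an empty plasmid, and the labels do not say whether JBY13 is the hog1Δ strain. The gene in WT is wild-type HOG1. For H and 170 the labels conflict: one field gives H the D170A gene and 170 the gene with D170A and F318L together, while another calls 170 D170A, so neither line is given a mutation here. All 4 lines went through methionine removal, none of these samples is of a culture kept in methionine, and Hog1 protein and its activity are not part of these data.

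High osmolarity reaches Hog1 through a pair of branches that converge on the kinase Pbs2. In the Sln1 branch, the membrane histidine kinase Sln1 passes phosphate through Ypd1 to the response regulator Ssk1, which in its unphosphorylated form activates the paralogous kinases Ssk2 and Ssk22. In the Sho1 branch, the mucin-like sensors Msb2 and Hkr1 act with the membrane anchor Sho1, and the adaptor Ste50 brings the kinase Ste11 to the membrane. Pbs2 then phosphorylates Hog1. Msb2, Sho1, Ste50 and Ste11 also serve the filamentation pathway, and Ste11 and Ste50 the mating pathway.

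Each line and time has 1 array. Errors and p-values therefore describe the spread of a line difference over the 3 later times, or of a change with time over the 4 lines. They do not hold the variation between cultures. H and WT lay on one slide, and 170 and vec on the other. H minus WT and 170 minus vec are therefore within a slide, while in every other comparison of lines the slide and the line cannot be told apart. The arrays had 75th percentile signals between 4930 and 11304 units, with 93.4% to 98.8% of spots well above background. Every level below is the log2 signal of the gene's probe minus that percentile, and every difference is in log2 units, given ± its standard error in the limma fit. Levels of different probes are not set against each other. In total RNA, less transcript per cell and fewer cells that carry it cannot be told apart. HOG1 itself stood at 1.65, 1.51, 1.90 and -1.67 at 0 min in H, 170, WT and vec, and after removal it was higher than in vec by 7.65 ± 0.09 in H, 8.29 ± 0.09 in 170 and 7.82 ± 0.09 in WT. The lines thus differed in HOG1 RNA before removal as well. The HOG1 probe lay well above background on 16 of 16 arrays, those of vec included, so these values do not settle whether vec lacks HOG1. The MET3 gene itself, the source of that promoter, rose by 5.18 ± 0.27. Its later levels were lowest in WT at 90 min (1.32) and vec at 45 min (1.44), and lay between 2.32 and 3.21 on the other later arrays.

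Each member had 1 probe with 2 spots, which lay well above background on 16 of 16 arrays with no saturated spot. The difference between the spots of a probe had a median of 0.03 (HKR1) to 0.14 (YPD1), and its highest value was 0.45, for STE50. The members varied unequally. The SD over the 16 arrays was 0.85 for SHO1, 0.82 for MSB2 and 0.70 for SSK22, 0.42 for SSK1, 0.35 for HKR1 and 0.31 for YPD1, and 0.22 to 0.23 for SLN1, SSK2, PBS2 and STE50. The median SD was 0.33 over the members and 0.45 over all genes tested. SHO1 stood at percentile 84.9 of all genes by its SD, and SLN1 at percentile 11.9. From its lowest to its highest array MSB2 spanned 6.93-fold, SHO1 6.01-fold and SSK22 5.03-fold, against 1.61-fold for SSK2.

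**Figure D1:**
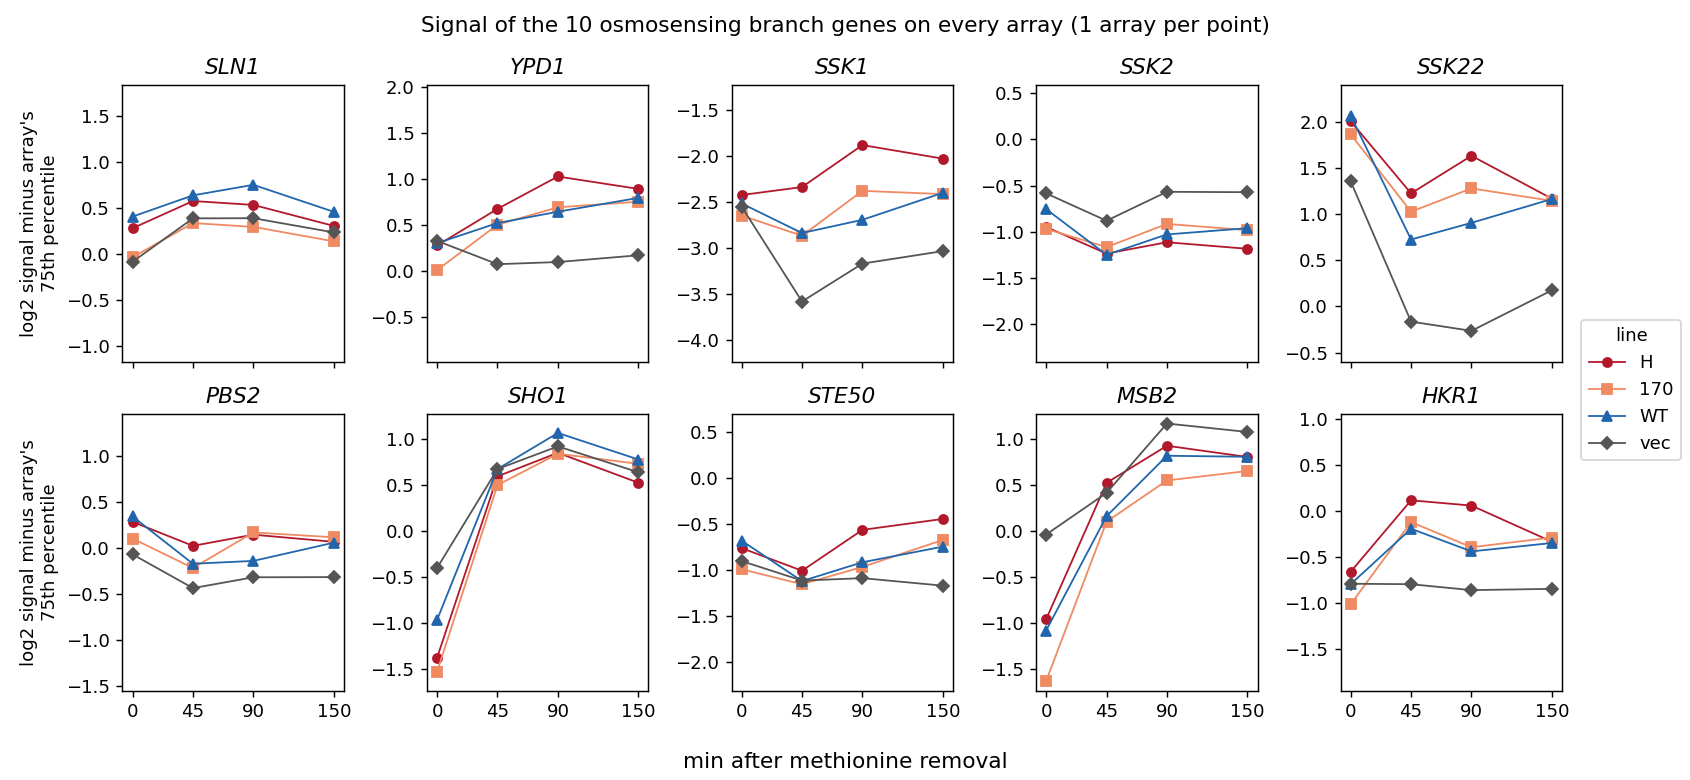
Level of each member on every array (log2 signal minus the array's 75th percentile, y axis, each panel spanning the same number of units) against minutes after methionine removal (x axis), 1 array per point, for lines H, 170, WT and vec. SHO1 and MSB2 are higher at every later time than at 0 min in all 4 lines, SSK22 is highest at 0 min in all 4, and for YPD1, SSK1, SSK22, PBS2 and HKR1 the vec points after removal lie below those of the other lines at the same time.

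The levels after methionine removal were first set against 0 min, over the 4 lines together. Of the members, 5 were higher over the mean of 45, 90 and 150 min than at 0 min and 3 were lower (limma, adjusted p under 0.05), where 79.1% of all genes tested passed, so the count of 8 is close to the background. The membrane anchor gene SHO1 and the mucin gene MSB2 had the largest rises of the 10, and the kinase gene SSK22 the largest fall. The median over the members was 0.10, and over all genes it was -0.11.

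SHO1 encodes the membrane protein that holds Pbs2 and Ste11 together at the plasma membrane. Its level over 0, 45, 90 and 150 min was -1.37, 0.59, 0.85 and 0.52 in H, -1.52, 0.50, 0.84 and 0.73 in 170, -0.96, 0.67, 1.06 and 0.78 in WT, and -0.40, 0.67, 0.92 and 0.64 in vec. Every later array lay above every 0 min array, and each line peaked at 90 min. SHO1 rose by 1.80 ± 0.13, or 3.47-fold (adjusted p = 8.2e-08, in 4 of 4 lines). MSB2 encodes a transmembrane mucin that senses for both the osmostress and the filamentation pathway. Its level was -0.96, 0.52, 0.92 and 0.80 in H, -1.63, 0.10, 0.55 and 0.65 in 170, -1.08, 0.16, 0.81 and 0.80 in WT, and -0.04, 0.41, 1.16 and 1.07 in vec. The vec array at 0 min stood far above the other arrays of that time and just below the lowest later array, that of 170 at 45 min. MSB2 rose by 1.59 ± 0.14, or 3.01-fold (adjusted p = 3.6e-07, in 4 of 4 lines), and its mean change was smaller at 45 min (1.22 ± 0.17) than at 90 and 150 min (1.79 ± 0.17 and 1.76 ± 0.17), a difference between times that was not tested.

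HKR1, the gene of the other mucin, showed a smaller mean rise of 0.44 ± 0.11 (adjusted p = 0.0027), made up of 3 lines that went up and vec, which did not. Its mean change from 0 min was 0.61 in H, 0.74 in 170 and 0.47 in WT, against -0.04 in vec. STE50, the adaptor gene, did not pass over the mean of the later times (-0.08 ± 0.09, adjusted p = 0.42, 95% interval -0.27 to 0.11). At 45 min alone it fell, by 0.26 ± 0.11 (adjusted p = 0.040), but under median scaling the value was -0.12 (adjusted p = 0.35).

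In the Sln1 branch the sensor gene SLN1 rose by 0.28 ± 0.06 (adjusted p = 0.00058, in 4 of 4 lines). The phosphotransfer gene YPD1 rose by 0.34 ± 0.11 (adjusted p = 0.015), upward in H, 170 and WT and downward in vec. Without H it was 0.26 (adjusted p = 0.12), without 170 0.24 (adjusted p = 0.14) and without WT 0.34 (adjusted p = 0.074). SSK22, one of the paired kinase genes, stood at 2.01, 1.23, 1.63 and 1.17 in H over the 4 times, at 1.87, 1.03, 1.28 and 1.14 in 170, at 2.07, 0.73, 0.91 and 1.16 in WT, and at 1.36, -0.17, -0.26 and 0.18 in vec. In each line the 0 min array was the highest of the 4. SSK22 fell by 0.99 ± 0.13 (adjusted p = 2.2e-05, 0.504-fold, in 4 of 4 lines). Its paralogue SSK2 fell by 0.17 ± 0.06 (adjusted p = 0.020) and the shared kinase gene PBS2 by 0.25 ± 0.07 (adjusted p = 0.0059), also in 4 of 4 lines, both nearer than SSK22 to the median of all genes. With each array scaled to its median, SSK2 had -0.07 (adjusted p = 0.32) and PBS2 -0.14 (adjusted p = 0.076). SSK1, the response regulator gene, had -0.10 ± 0.13 (adjusted p = 0.49, 95% interval -0.38 to 0.18), with the lines moving in different directions. On the slide of 170 and vec alone, 4 members passed over the mean of the later times, SLN1, SSK22, SHO1 and MSB2, where 3323 of the 6165 genes did. Without WT 5 passed, with YPD1, SSK2 and PBS2 no longer among them.

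At single times the members that passed were 9 at 45 min (4 higher, 5 lower), where 76.3% of all genes did, 6 at 90 min (5 higher, 1 lower), where 74.7% did, and 5 at 150 min (4 higher, 1 lower), where 73.6% did. SHO1, MSB2 and HKR1 rose and SSK22 fell at each of the 3 times. SSK2 and PBS2 fell at 45 min, by 0.32 ± 0.08 (adjusted p = 0.0020) and 0.36 ± 0.09 (adjusted p = 0.0021), and passed at neither later time. SSK1 fell at 45 min by 0.37 ± 0.16 with an adjusted p of 0.0499, next to the threshold. Without vec its value at 45 min was -0.15 (adjusted p = 0.26), and at 150 min the fit gave 0.06 ± 0.16. YPD1 did not pass at 45 min (0.21 ± 0.14, adjusted p = 0.18) and rose at 90 and 150 min, by 0.38 ± 0.14 (adjusted p = 0.024) and 0.42 ± 0.14 (adjusted p = 0.015). Neither YPD1 nor HKR1 passed at 90 or 150 min without H, without 170 or without WT. On each slide the time also goes with an array's position, and its part in these changes was not tested.

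**Figure D2:**
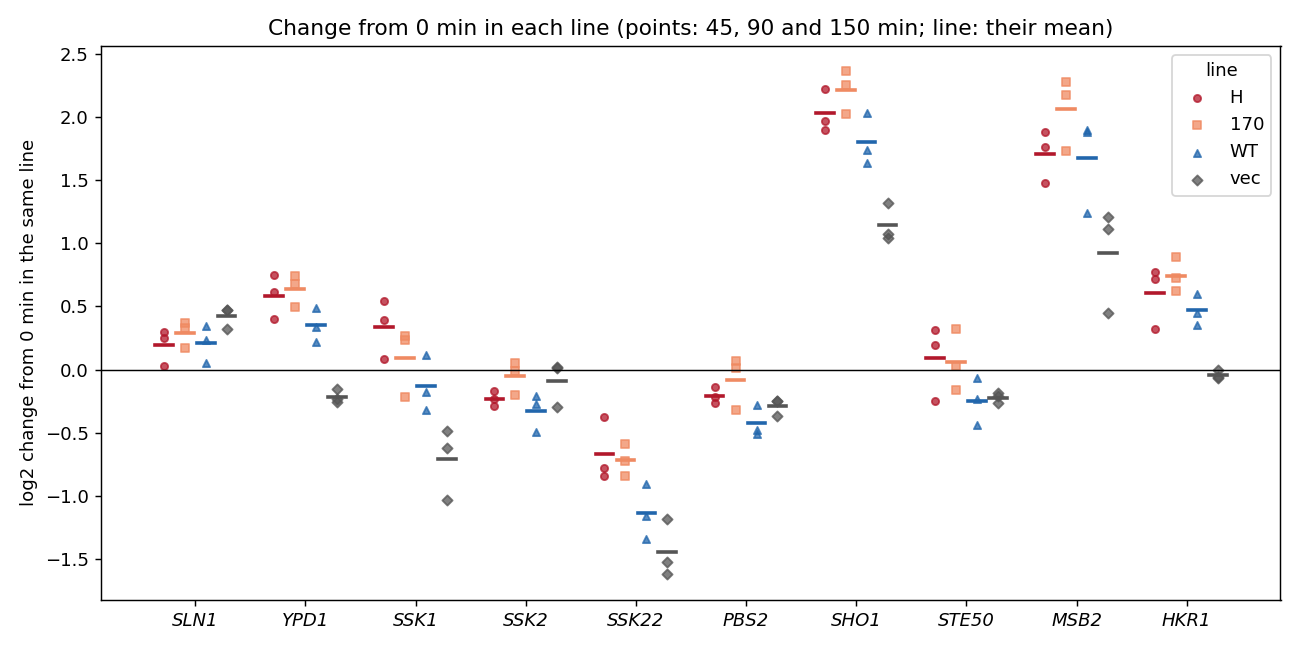
Change from 0 min within each line (log2, y axis) for the 10 members (x axis), with points for 45, 90 and 150 min and a bar at their mean, for lines H, 170, WT and vec. For YPD1, SSK1 and HKR1 the points of vec lie below those of H, 170 and WT, and for SHO1 the vec points between 1.04 and 1.32 lie below all others.

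The next comparison asks how H, 170 and WT, with HOG1 under the MET3 promoter, differed from vec after removal. In H minus vec, 6 members were higher and 1 was lower, a count of 7 of 10 where 49.6% of all genes tested passed. In 170 minus vec 5 were higher and 2 lower, where 32.3% of all genes passed, and in WT minus vec 6 were higher and 2 lower, where 29.6% did. The shares of members that passed were above these backgrounds, with no test made of that. The medians over the members were 0.44 in H, 0.29 in 170 and 0.27 in WT minus vec, and over all genes -0.01, -0.03 and 0.03. The 3 comparisons share the vec arrays, so they are not independent of each other. YPD1, SSK1, SSK22, PBS2 and HKR1 were higher and SSK2 was lower in each of the 3. Without the arrays at 90 min, 5 members passed in H, and 2, SSK1 and SSK22, in 170 and in WT. Of all genes, 1348 passed then in H, 569 in 170 and 189 in WT minus vec.

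SSK22 had the largest difference of the members from vec in each line. After removal its mean level was 1.34 ± 0.25 in H, 1.15 ± 0.13 in 170 and 0.93 ± 0.22 in WT, against -0.08 ± 0.23 in vec (SD over 3 times each). All 9 arrays of H, 170 and WT lay above all 3 of vec. It was higher than in vec by 1.43 ± 0.15 in H (adjusted p = 0.00013, 2.69-fold), by 1.23 ± 0.15 in 170 (adjusted p = 0.00051) and by 1.02 ± 0.15 in WT (adjusted p = 0.0021), at 3 of 3 times each. At 0 min SSK22 did not pass in any line with the scaling used here, with values of 0.65 ± 0.26, 0.51 ± 0.26 and 0.71 ± 0.26 in H, 170 and WT minus vec (smallest adjusted p = 0.080). Under quantile normalization it passed at 0 min in all 3, at 1.03 in H (adjusted p = 0.013), 0.79 in 170 (adjusted p = 0.041) and 1.06 in WT (adjusted p = 0.015). The mean change of SSK22 from 0 min was -0.67 in H, -0.72 in 170 and -1.13 in WT, against -1.44 in vec, and the difference between these changes did not pass in any line (smallest adjusted p = 0.11).

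SSK1 encodes the response regulator that turns on Ssk2 and Ssk22. Its levels over 0, 45, 90 and 150 min were -2.43, -2.34, -1.88 and -2.03 in H, -2.65, -2.87, -2.38 and -2.42 in 170, -2.52, -2.84, -2.69 and -2.40 in WT, and -2.55, -3.58, -3.17 and -3.03 in vec. At 0 min the 4 lines lay within a narrow band, and at each later time vec was lowest and H highest. SSK1 was higher than in vec by 1.18 ± 0.09 in H (adjusted p = 4.1e-05, 2.26-fold), by 0.71 ± 0.09 in 170 (adjusted p = 0.00078) and by 0.62 ± 0.09 in WT (adjusted p = 0.0024). It also differed between lines with HOG1 under the MET3 promoter. In the limma fit H was above WT by 0.56 ± 0.09 (adjusted p = 0.019) and above 170 by 0.47 ± 0.09 (adjusted p = 0.015), each at 3 of 3 times. The value of 170 minus WT was 0.09 ± 0.09 (adjusted p = 0.53, 95% interval -0.13 to 0.31).

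YPD1 encodes the carrier that passes phosphate from Sln1 to Ssk1. It stood at 0.28, 0.68, 1.03 and 0.89 in H, at 0.01, 0.50, 0.69 and 0.75 in 170, at 0.30, 0.52, 0.64 and 0.79 in WT, and at 0.33, 0.08, 0.10 and 0.17 in vec over the 4 times. The highest array of vec was that of 0 min, and the lowest array of each other line was its own 0 min array. After removal YPD1 was higher than in vec by 0.75 ± 0.08 in H (adjusted p = 0.00014), by 0.53 ± 0.08 in 170 (adjusted p = 0.0014) and by 0.54 ± 0.08 in WT (adjusted p = 0.0022). H, 170 and WT did not differ from each other in the test, with H minus WT at 0.21 ± 0.08 (adjusted p = 0.14, 95% interval 0.03 to 0.40).

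HKR1 stood at -0.66, 0.12, 0.06 and -0.33 in H, at -1.01, -0.12, -0.39 and -0.29 in 170, at -0.79, -0.19, -0.44 and -0.35 in WT, and at -0.79, -0.79, -0.86 and -0.84 in vec. The 4 vec arrays stayed together, and all 9 later arrays of the other lines lay above them. HKR1 was higher than in vec by 0.78 ± 0.10 in H (adjusted p = 0.00042, 1.72-fold), by 0.56 ± 0.10 in 170 (adjusted p = 0.0039) and by 0.51 ± 0.10 in WT (adjusted p = 0.0084). PBS2, the kinase that phosphorylates Hog1, averaged 0.08 ± 0.06 in H, 0.02 ± 0.21 in 170 and -0.08 ± 0.12 in WT, against -0.36 ± 0.07 in vec (SD over 3 times each). It was higher than in vec by 0.43 ± 0.09 in H (adjusted p = 0.0035), by 0.38 ± 0.09 in 170 (adjusted p = 0.011) and, close to the threshold, by 0.27 ± 0.09 in WT (adjusted p = 0.047), where it no longer passed without any one of the later times or under median scaling (0.23, adjusted p = 0.071). At 0 min PBS2 already lay above vec, by 0.35 in H, 0.17 in 170 and 0.41 in WT, on 1 array a side. The change of PBS2 from 0 min differed from that of vec by 0.08 in H, 0.21 in 170 and -0.14 in WT, and passed in no line. STE50 levels ran from -1.17 (vec at 150 min) over a median of -0.94 to -0.45 (H at 150 min) on the 16 arrays. STE50 passed against vec in H alone, by 0.45 ± 0.12 (adjusted p = 0.011), and had 0.19 ± 0.12 in 170 and 0.20 ± 0.12 in WT. H minus WT for STE50 was 0.25 ± 0.12 (adjusted p = 0.19), so these lines are not shown to differ. Without 150 min STE50 in H minus vec was 0.31 (adjusted p = 0.096), and without 90 min 0.41 (adjusted p = 0.14).

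Against vec, SSK2 differed in the opposite direction to its paralogue. Its levels were -0.95, -1.24, -1.11 and -1.19 in H, -0.97, -1.17, -0.92 and -0.98 in 170, -0.76, -1.25, -1.03 and -0.96 in WT, and -0.58, -0.88, -0.57 and -0.57 in vec. At each of the 4 times vec was the highest line. After removal SSK2 was lower than in vec by a difference of -0.51 ± 0.07 in H (adjusted p = 0.00064, 0.704-fold), -0.35 ± 0.07 in 170 (adjusted p = 0.0073) and -0.41 ± 0.07 in WT (adjusted p = 0.0048). A lower value was also measured at 0 min in 170, -0.39 ± 0.13 (adjusted p = 0.049), and in H the 0 min value was -0.36 ± 0.13 (adjusted p = 0.057). Both lie next to the threshold: of 7 alternatives, 2 lost the call in 170 (adjusted p up to 0.062) and 4 made one in H (adjusted p down to 0.041). The change of SSK2 from 0 min differed from that of vec by -0.14 in H, 0.04 in 170 and -0.24 in WT. None of these differences passed. How far a probe of SSK2 or SSK22 also reads its paralogue was not tested. The opposite signs are those of the 2 probes as measured.

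SLN1, SHO1 and MSB2 showed no common difference from vec after removal. SLN1 stood at 0.28, 0.58, 0.53 and 0.31 in H, at -0.03, 0.34, 0.30 and 0.14 in 170, at 0.41, 0.64, 0.75 and 0.46 in WT, and at -0.08, 0.39, 0.39 and 0.24 in vec. WT was highest at each time, and 170 and vec, which share a slide, lay close together. SLN1 was higher than in vec in WT, by 0.28 ± 0.07 (adjusted p = 0.016), and lower in 170 than in WT, by a difference of -0.36 ± 0.07 (adjusted p = 0.013). Both cross slides, and both were lost without 90 min (0.24, adjusted p = 0.28, and -0.31, adjusted p = 0.33) or without 150 min. Within slides, H minus WT was -0.14 ± 0.07 (adjusted p = 0.20) and 170 minus vec -0.08 ± 0.07 (adjusted p = 0.40).

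For SHO1 the later levels of the 4 lines overlapped, and no pair of lines passed. H minus vec was -0.09 ± 0.08 (adjusted p = 0.38, 95% interval -0.26 to 0.09), 170 minus vec -0.05 ± 0.08 (interval -0.23 to 0.12) and WT minus vec 0.09 ± 0.08 (interval -0.08 to 0.27). MSB2 after removal was lower than in vec in 170, by a difference of -0.45 ± 0.09 (adjusted p = 0.0067), and in WT by -0.29 ± 0.09 (adjusted p = 0.046), while H minus vec was -0.13 ± 0.09 (adjusted p = 0.26, interval -0.35 to 0.08). Neither call of MSB2 held without 90 min (-0.37, adjusted p = 0.18, and -0.26, adjusted p = 0.32) or without 150 min, and that in WT also missed the threshold without 45 min and under normexp correction or quantile normalization. H minus 170 for MSB2 was 0.32 ± 0.09, just short of the threshold (adjusted p = 0.051).

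**Figure D3:**
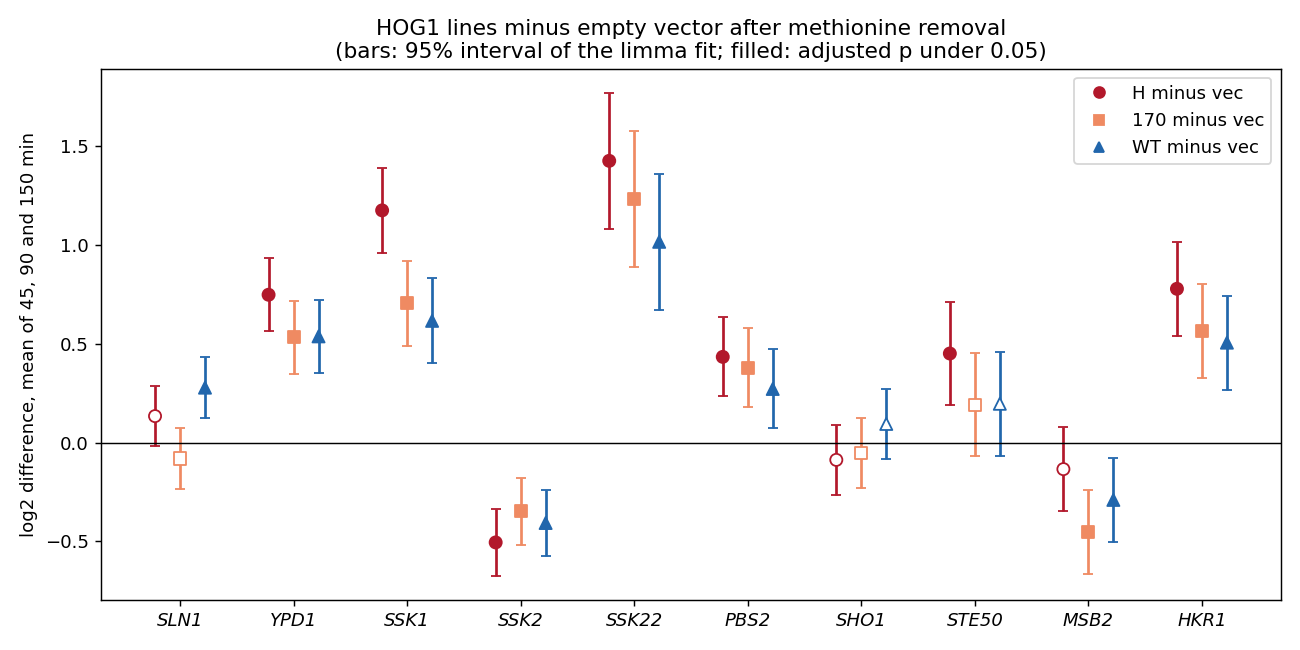
Difference from vec after methionine removal (log2, mean of 45, 90 and 150 min, y axis) for each member (x axis) in H, 170 and WT, with 95% intervals of limma's fit, filled where the adjusted p was under 0.05. SSK22 and SSK1 have the largest positive differences in each line, SSK2 is negative in all 3, and SHO1 lies between -0.09 and 0.09.

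By mean level after removal, SSK1, SSK22, PBS2 and HKR1 had one order of the lines, H, 170, WT and then vec, and SSK2 had vec, 170, WT and then H. Among neighbours in these orders, vec differed from the line next to it for each of the 5 genes, 170 and WT differed for none, H and 170 differed for SSK1, and WT and H did not differ for SSK2. YPD1 and STE50 had H highest, 170 and WT nearly equal, and vec lowest, and of these steps only that of YPD1 to vec passed. MSB2 ran vec, H, WT and 170, and SHO1 WT, vec, 170 and H, and no neighbours in either order differed. SLN1 ran WT, H, vec and 170, also with no neighbours that differed.

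Between H, 170 and WT few members differed. In H minus WT, which lies within a slide, SSK1 was the only member called of 10, where 5.97% of all genes tested passed (limma). An unadjusted p under 0.05 was found for 5 members and for 1725 of the 6165 genes. In 170 minus WT, SLN1 was the only one, where 17.7% of all genes passed, and in H minus 170, SSK1 was, where 16.2% did. Fitted on the arrays of its slide alone, SSK1 in H minus WT kept its value of 0.56 with an adjusted p of 0.054. Without 90 min it was 0.43 (adjusted p = 0.48) and without 150 min 0.65 (adjusted p = 0.12). SSK1 in H minus 170 did not pass without any one of the 3 later times (0.44 to 0.51, adjusted p = 0.061 to 0.23).

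At 0 min, before the inducing step but with HOG1 RNA already above vec, SHO1 and MSB2 were the members that differed in every line. In H minus vec 1 member was higher and 2 lower, where 32.1% of all genes passed. In 170 minus vec none was higher and 3 were lower, where 30.6% did, and in WT minus vec 1 was higher and 2 lower, where 24.5% did. SHO1 was lower than in vec by differences of -0.97 ± 0.14 in H (adjusted p = 0.0013), -1.12 ± 0.14 in 170 (adjusted p = 0.00064) and -0.56 ± 0.14 in WT (adjusted p = 0.018). MSB2 was lower by -0.92 ± 0.16 in H (adjusted p = 0.0035), -1.59 ± 0.16 in 170 (adjusted p = 0.00034) and -1.04 ± 0.16 in WT (adjusted p = 0.0032). Each of these rests on 1 array a side, which is assumed to vary as the lines did over the later times. The values of 170 minus vec are within a slide. SLN1 was higher at 0 min in H, by 0.36 ± 0.12 (adjusted p = 0.042), and in WT, by 0.49 ± 0.12 (adjusted p = 0.018), and both of these cross slides. The value in H did not pass under median scaling (0.34, adjusted p = 0.051) or normexp correction (0.30, adjusted p = 0.083). In H minus WT at 0 min no member passed, where 0.0162% of all genes did (limma), and SHO1 was the 1 member with an unadjusted p under 0.05 (-0.41 ± 0.14).

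The change from 0 min was then compared between lines, a comparison in which a constant difference between slides drops out. In H minus vec the change was higher for 4 members and lower for none, where 18.4% of all genes passed. In 170 minus vec it was higher for 5 and lower for none, where 21.0% passed, and in WT minus vec it was higher for 2, where 8.30% did. These comparisons share the vec arrays too, the 1 vec array at 0 min among them. The mean change of SHO1 was 2.03 in H, 2.21 in 170 and 1.80 in WT, against 1.14 in vec, differences of 0.89 ± 0.16 (adjusted p = 0.0091), 1.07 ± 0.16 (adjusted p = 0.0032) and 0.66 ± 0.16 (adjusted p = 0.036). That of MSB2 was 1.71 in H, 2.06 in 170 and 1.67 in WT, against 0.92 in vec, differences of 0.78 ± 0.19 (adjusted p = 0.023), 1.14 ± 0.19 (adjusted p = 0.0050) and 0.75 ± 0.19 (adjusted p = 0.043). For SHO1 the lines lay apart at 0 min and overlapped later, as the plot of levels by time shows. The MSB2 levels were also nearer to each other later, but 170 and WT were still below vec after removal.

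For YPD1 and SSK1 the pattern was the opposite, with the lines closer together at 0 min than later, though 170 had the lowest YPD1 level at 0 min. The mean change of YPD1 was 0.59 in H and 0.64 in 170, against -0.21 in vec, and its difference was 0.80 ± 0.16 in H (adjusted p = 0.014) and 0.85 ± 0.16 in 170 (adjusted p = 0.0086). In WT it was 0.56 ± 0.16 and did not pass (adjusted p = 0.066). SSK1 changed by 0.34 in H and 0.09 in 170, against -0.71 in vec, with differences of 1.05 ± 0.19 (adjusted p = 0.0098) and 0.80 ± 0.19 (adjusted p = 0.019), and 0.58 ± 0.19 in WT (adjusted p = 0.093). HKR1 passed in 170, at 0.79 ± 0.21 (adjusted p = 0.030), and had 0.65 ± 0.21 in H (adjusted p = 0.061) and 0.51 ± 0.21 in WT (adjusted p = 0.16). In H minus WT no member passed and no gene of the 6165 did (0%, limma), with 1 member, SSK1 at 0.47 ± 0.19, and 319 genes at an unadjusted p under 0.05. Without the arrays at 90 min, no member passed in any of these comparisons of the change. Of all genes, 6 passed then in H minus vec, 70 in 170 and 3 in WT. Without the arrays at 150 min, YPD1 and MSB2 in H, SSK1 in 170, and SHO1 and MSB2 in WT did not pass. Without 45 min HKR1 in 170 did not.

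The other genes of the pathway were taken from 3 lists of names. Of 16 further HOG pathway genes, 8 were higher and 2 lower in H minus vec after removal, 4 higher and 1 lower in 170 minus vec, and 6 higher and none lower in WT minus vec, HOG1 among the higher ones each time. Of all genes 49.6%, 32.3% and 29.6% passed in these comparisons. Besides HOG1, the phosphatase genes PTP2 (1.89 ± 0.12, adjusted p = 1.7e-05) and PTP3 (1.39 ± 0.14, adjusted p = 9.6e-05), whose products remove phosphate from Hog1, differed most in H minus vec. Over time 6 of the 16 rose and 5 fell, a smaller share than the 79.1% of all genes that passed, among them HOG1 (2.90 ± 0.58) and PTC2 (0.69 ± 0.12, adjusted p = 0.00014), a type 2C protein phosphatase gene. HOG1 rose in H, 170 and WT, whereas in vec it went from -1.67 at 0 min to -2.31, -2.12 and -2.14. The medians of the list were 0.28 in H minus vec and -0.07 over time, and those of all genes -0.01 and -0.11.

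Of 11 genes of the mating and filamentation cascade, which shares Ste11 and Ste50 with the Sho1 branch, 1 was higher and 6 lower in H minus vec after removal, where 49.6% of all genes passed. TEC1, a transcription factor gene of filamentation, had -1.19 ± 0.14 (adjusted p = 0.00021), STE4, the gene of the G protein beta subunit, -0.53 ± 0.13 (adjusted p = 0.0086), and DIG2, a repressor of Ste12, -0.52 ± 0.09 (adjusted p = 0.0011). Over time 2 of the 11 rose and 7 fell, close to the 79.1% of all genes that passed, among them TEC1 (-1.51 ± 0.13, adjusted p = 4.9e-07) and the G protein gamma subunit gene STE18 (-0.83 ± 0.08, adjusted p = 8.3e-07), while STE4 rose by 0.93 ± 0.21 (adjusted p = 0.0015). The medians of the list were -0.36 in H minus vec and -0.26 over time, against -0.01 and -0.11 over all genes.

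Of 12 genes that respond to pheromone or filamentation signals, 1 was higher and 8 lower in H minus vec after removal. Of all genes 49.6% passed there, and the median of the list was -0.69. The higher 1 was PGU1, at -8.41, -8.09 and -7.33 in H and -8.82, -8.76 and -8.54 in vec over the later times. Its probe was well above background on only 11 of the 16 arrays, 2 of them at 0 min. The cyclin-dependent kinase inhibitor gene FAR1 had -1.98 ± 0.15 (adjusted p = 3.5e-05), the cell fusion gene FUS1 -1.93 ± 0.13 (adjusted p = 1.9e-05), and the agglutinin subunit gene AGA1 -1.25 ± 0.16 (adjusted p = 0.00028). Over time 1 rose and 7 fell, a smaller share than the 79.1% of all genes, with FUS1 at -2.16 ± 0.09 (adjusted p = 2.9e-09), FUS2, also of cell fusion, at -1.69 ± 0.15 (adjusted p = 4.8e-07) and SVS1, a cell wall protein gene, at 2.09 ± 0.21 (adjusted p = 1.4e-06). At 0 min, where SHO1 and MSB2 lay below vec, 11 of these 12 were lower in H (median -1.79), 10 in 170 (median -1.93) and 10 in WT (median -1.37), and none was higher. Of all genes 32.1%, 30.6% and 24.5% passed in these comparisons at 0 min. The change from 0 min was higher than in vec for 7 of them in H, 6 in 170 and 4 in WT, and lower for none, where 18.4%, 21.0% and 8.30% of all genes passed. The part of mating or filamentation signalling in the SHO1 and MSB2 differences was not tested.

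**Figure D4:**
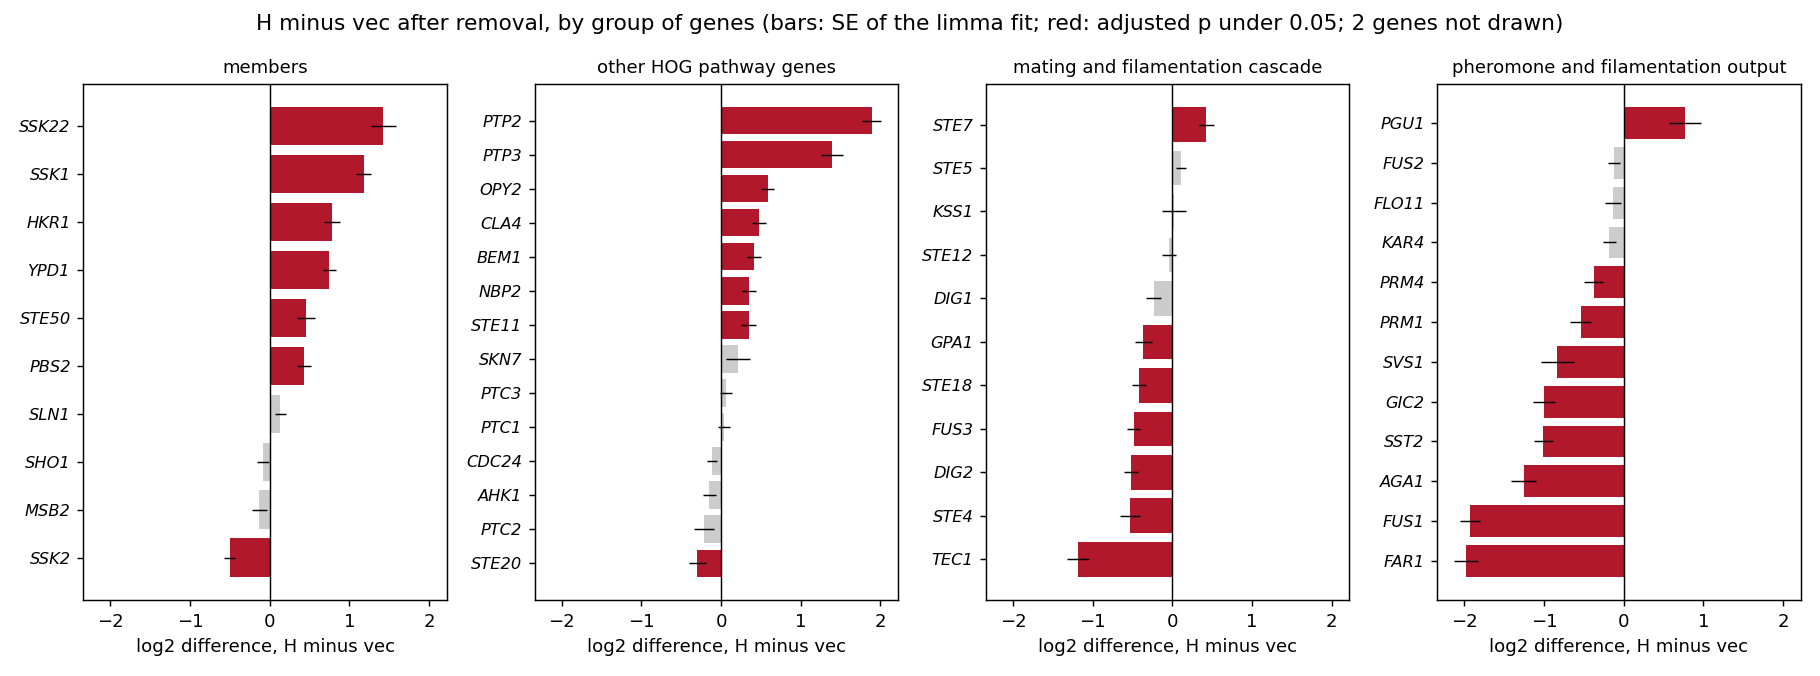
H minus vec after methionine removal (log2 difference, x axis, bars with the standard error of the fit, red where the adjusted p was under 0.05) for the 10 members and 3 lists of related genes, with HOG1 and 1 other HOG pathway gene not drawn. Among the members 6 bars are red to the right and 1 to the left. Among the 12 output genes 1 is red to the right and 8 to the left. The 1 to the right is PGU1, which was well above background on only 11 of the 16 arrays.

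Profiles over the 16 arrays were then set against those of the 3 most variable members. The measure was the root mean square difference of levels, each centred on its own mean. Only genes with a symbol were ranked, so a gene known by its systematic name alone could lie nearer. Nearest to SHO1 were RPS1A, a ribosomal protein gene (0.14), EGD2, of the nascent polypeptide-associated complex (0.14), and SEC14, of phospholipid transfer (0.15). Nearest to MSB2 were the checkpoint kinase gene DUN1 (0.21), ABP140, which encodes an actin-binding methyltransferase (0.22), and the beta-tubulin gene TUB2 (0.22). Nearest to SSK22 were AVO2, a subunit gene of TOR complex 2 (0.23), MNN14 (0.24) and PAU12 (0.25), which belongs to a family of near-identical genes, so that its probe may read several of them.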

How the data were processed

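Per the file headers, Agilent's Feature Extraction software (version 10.7.1.1) made the processed intensity of each spot, with background subtracted and no scaling between arrays. Per the labels' protocols, the RNA carried Cy3. The deposited value table holds log2 values, centred per probe on the 8 arrays of a slide as its values show, for 6107 of 6256 probes, all 10 members included. Within a slide its differences correlated at 0.998 or more with those used here.

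From the processed intensities, log2 values were averaged over the 2 spots of a probe and set against the 75th percentile of the array. Probes well above background on at least 3 arrays were kept. The brightest probe stood for each of 28 genes with several. Fits used limma 3.58.1 in R 4.3.3 (lmFit, eBayes, two-sided), with Benjamini-Hochberg adjustment over 6165 genes and calls at 0.05. The time fit took 16 arrays and a line term, the fit of lines after removal took the later arrays and a time term, and the fit for 0 min and changes from it took 16 arrays with time, line and their interaction (0 min or later). The scripts were tested on simulated data.

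The members, lists and tests were chosen with earlier results of these data known. The text names all members, HOG1, MET3, and up to 3 genes per list with the largest passing values over time and in H minus vec. It also names the 3 nearest profiles, among genes with a symbol, for each of the 3 members with the largest SD. PGU1 is named for its low signal. Alternatives changed background correction, scaling, filter, probe averaging, variance model and the lines, times or slide used. Of the systematic names 5738 matched the RefSeq table, of another assembly than the headers name, used for names only. The planned search of promoters for motifs was not run, and no sequence is given. For 1 gene that this rule names, the values are not reported here.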

Additional observations from a re-analysis of the deposited data

Results flagged for a closer look

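The change from 0 min differed between H, 170 or WT and vec, by limma's test of the difference itself, for 11 combinations of member and line. In H minus vec these were SSK1 (1.05), SHO1 (0.89), YPD1 (0.80) and MSB2 (0.78). In 170 minus vec they were MSB2 (1.14), SHO1 (1.07), YPD1 (0.85), SSK1 (0.80) and HKR1 (0.79). In WT minus vec they were MSB2 (0.75) and SHO1 (0.66). Each was a higher change than in vec at 3 of 3 times. All 11 share the single vec array at 0 min, and none passed without the arrays at 90 min. Of all genes tested, 6 passed without them in H minus vec (main 1137), 70 in 170 (main 1295) and 3 in WT (main 512).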

How the results depend on the processing

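No member reversed a call. Over all comparisons and alternatives, 1792 values of members stayed on their side of the threshold, 110 no longer passed and 28 newly passed. SSK1 and SSK22 passed in H, 170 and WT minus vec after removal in all alternatives run. For the number of members called, the fits on slide 2 alone gave 4 for the later mean (main count 8), 3 of 9 at 45 min, 3 of 6 at 90 min, 3 of 5 at 150 min and 4 of 7 in 170 minus vec, and slide 1 alone gave 0 of 1 in H minus WT. Over all genes, slide 2 alone gave 3323 calls for the later mean (main 4877) and 2868 at 45 min (main 4704). At 90 min it gave 2706 (main 4608) and at 150 min 2500 (main 4536). Leaving out a line gave 5 to 8 members for the later mean (5 without WT) and 3 to 5 at 150 min (3 without H or without WT). Leaving out a time gave 2 to 7 in 170 minus vec, 2 to 5 in WT minus vec (main count 8), 0 to 1 in H minus WT and in 170 minus WT, and 0 to 0 in H minus 170. For the change from 0 min it gave 0 to 4 in H minus vec (main 4), 0 to 4 in 170 minus vec (main 5) and 0 to 2 in WT minus vec (main 2). Each lowest count was reached without 90 min. Normexp background correction gave 2 in H minus WT, 2 in 170 minus WT and 4 in H minus 170. In H minus 170 it moved the calls over all genes to 1252 from 998. There quantile normalization, the filter on all 16 arrays and the trend and robust variance gave 2 members each. Where no count over all genes is given for a setting, a shift of the members cannot be told from one of all genes. Quantile normalization gave 5 for H minus vec at 0 min (main 3). Fits without a line, a time or a slide hold fewer arrays, and why the counts moved was not tested. Over all genes, leaving out 90 min moved the calls to 1348 from 3059 in H minus vec. They moved to 569 from 1989 in 170 minus vec, 189 from 1823 in WT minus vec and 0 from 368 in H minus WT. In 170 minus WT they moved to 0 from 1091, and in H minus 170 to 1 from 998. For the change they moved to 6 from 1137 in H minus vec, 70 from 1295 in 170 and 3 from 512 in WT. Leaving out 45 min instead raised the calls in some comparisons. They reached 967 in H minus WT, 1389 in 170 minus WT and 2107 in 170 minus vec. For the change they reached 1872 in H and 1946 in 170 minus vec. Each group has 1 array, so no replicate numbers pair arrays, and arrays were matched only by line or by time. The fits hold line or time as a term. The members lay well above background on all 16 arrays, and the part of their brightness in the moved counts was not tested.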
